A study of Mus musculus with 20 samples.

Results

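Liver iron sensing and storage is described here through 10 genes, taken by symbol from the deposited count table of 20914 genes: Hamp, Hamp2, Tfrc, Tfr2, Trf, Fth1, Ftl1, Slc40a1, Hfe and Bmp6. All 10 were in the table and all 10 were among the 13670 genes tested. The knockout (KO) group was 10 male mice of genotype HSD17B12lox/lox;Alb-CreCre/WT, and the wild-type (WT) group was 10 male mice of genotype HSD17B12lox/lox;Alb-CreWT/WT, all of strain LiB12cKO and 8 weeks old. Both groups carried the floxed Hsd17b12 alleles. Hsd17b12 encodes a reductase of the cycle that elongates very long fatty acid chains. The albumin promoter drives Cre recombinase in hepatocytes, and whether other liver cells of the KO mice lost the gene cannot be read from bulk tissue. Because all KO mice and no WT mice carried Cre, effects of Cre and of the lost gene cannot be told apart. Total RNA of the left lateral lobe was sequenced from each mouse, and every mouse is 1 library.

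Hepatocytes set the iron level of the body by secreting hepcidin, the product of Hamp, which binds the iron exporter ferroportin (Slc40a1) on macrophages, gut cells and hepatocytes and causes its breakdown. Hepcidin transcription is driven by BMP6 from liver endothelial cells through BMP receptors and SMAD proteins, by transferrin carrying iron through TFR2 and HFE, and by IL6 through STAT3. Inside cells, iron regulatory proteins bind hairpins called iron-responsive elements (IREs) when iron is low, which blocks translation where the hairpin lies in a 5′ untranslated region (UTR) and stabilises the Tfrc mRNA, whose hairpins lie in its 3′ UTR.

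The promoters of both hepcidin genes are shown because Hamp and Hamp2 moved together, as described below. The sequences are the 250 bases upstream of each gene start in RefSeq on GRCm38.p6, on the minus strand at chr7:30944030-30944279 for Hamp and chr7:30924182-30924431 for Hamp2. The RefSeq start of Hamp lies 12 bases upstream of the start in the authors' deposited annotation, and the 2 starts of Hamp2 coincide; distances below are from the RefSeq start. Capitals mark GGCGCC, a motif of BMP-responsive elements, and TTCNNNGAA, a motif of STAT factors; each reads the same on both strands.
Hamp: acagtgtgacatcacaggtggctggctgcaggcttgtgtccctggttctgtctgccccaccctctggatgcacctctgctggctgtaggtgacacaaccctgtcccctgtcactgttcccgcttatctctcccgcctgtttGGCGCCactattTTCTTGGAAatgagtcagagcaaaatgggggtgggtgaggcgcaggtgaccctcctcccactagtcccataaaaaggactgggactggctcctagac
Hamp2: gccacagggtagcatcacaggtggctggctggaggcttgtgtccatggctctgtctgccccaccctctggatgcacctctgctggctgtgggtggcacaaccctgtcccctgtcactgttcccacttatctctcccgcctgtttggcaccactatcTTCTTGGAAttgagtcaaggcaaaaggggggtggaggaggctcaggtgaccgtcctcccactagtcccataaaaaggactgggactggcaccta
The windows aligned over 247 bases, of which 227 (91.9%) were identical. TTCTTGGAA stood 97 to 89 bases upstream of the Hamp start and 94 to 86 bases upstream of the Hamp2 start. GGCGCC stood 109 to 104 bases upstream of Hamp, and in Hamp2 the aligned bases differed by the substitution G145A, counted from 1 at the 5′ end of the Hamp window. Of 32851 RefSeq promoter windows of this length, 9.59% held GGCGCC and 7.02% held TTCNNNGAA. Windows were found for 8 of the 10 genes, and among the other 6, Tfrc held GGCGCC 89 to 84 bases upstream in 1 of its 2 windows, and none held TTCNNNGAA.

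The IREs are shown because 4 of the 10 genes carry them, and with TMM factors 3 of them were higher and 1 lower in KO mice. Each is a C, a 5-base arm, the CAGTG loop with 1 further base (capitals) and a 5-base arm that pairs with the first, with G-T pairs allowed, read from GENCODE M21 transcripts on GRCm38. The storage genes and the exporter hold 1 each in the 5′ UTR.
Fth1, chr19:9982738-9982754, plus strand: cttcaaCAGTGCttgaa
Ftl1, chr7:45459785-45459801, minus strand: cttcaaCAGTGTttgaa
Slc40a1, chr1:45925471-45925487, minus strand: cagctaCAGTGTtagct
In the 3′ UTR of Tfrc this pattern found 4, all on the plus strand, and it misses elements whose arms pair imperfectly.
Tfrc, chr16:32631225-32631241: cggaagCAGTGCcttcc
Tfrc, chr16:32631604-32631620: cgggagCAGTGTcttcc
Tfrc, chr16:32631669-32631685: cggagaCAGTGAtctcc
Tfrc, chr16:32631716-32631732: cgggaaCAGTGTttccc
Such a match occurs in the transcripts of 294 of 21901 protein-coding genes, or 1.34%. Alas2, which makes heme in red cell precursors and is described below as the IRE gene that fell most, holds 1 in its 5′ UTR.
Alas2, chrX:150547464-150547480, plus strand: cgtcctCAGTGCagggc

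The libraries held 16693195 to 24895938 assigned fragments in KO mice and 19676907 to 29124124 in WT mice. Values are CPM, counts scaled to a common library total with TMM factors, which lay between 1.05 and 1.24 in KO mice and between 0.787 and 0.974 in WT mice. Without these factors, by library size alone, the median over the 13670 tested genes was at 0.44 on the log2 scale in place of -0.02, a shift of 0.47, and values by library size are printed beside many of the changes below. Hsd17b12 had 44.2 to 51.3 CPM in KO mice, with a median of 47.9, against 122.8 to 177.2 CPM in WT mice, with a median of 153.9 (log2 fold change -1.66, SE 0.06), and the genotypes did not overlap. On the first principal component KO_391 and WT_441 stood nearest the other genotype, and results that change without them are named. Fragments with several mapping positions made up 2.10% to 8.51% of mapped fragments in KO mice, with a median of 2.85%, and 3.41% to 14.2% in WT mice, with a median of 10.9%. Fragments ambiguous between genes came to 3.99% to 7.62% of assigned fragments in KO mice, with a median of 4.201%, and 4.19% to 10.4% in WT mice, with a median of 7.86%. All 10 hepatocyte markers (Alb, Ttr and others) were lower in KO mice, against 31.0% of all tested genes. By library size 6 of them were lower and 0 higher, against 6.71% and 68.4% of all tested genes. Their summed level was 52450 to 66290 CPM in KO mice and 86640 to 119900 CPM in WT mice. In bulk tissue fewer cells of a type and less RNA per cell cannot be told apart.

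Genes of iron sensing moved in both directions. Of the 10 genes, 4 were higher in KO mice (Bmp6, Fth1, Ftl1 and Tfrc), 4 were lower (Hamp, Hamp2, Tfr2 and Slc40a1) and 2 did not pass (Trf and Hfe), by edgeR's quasi-likelihood test with Benjamini-Hochberg adjustment over all tested genes at 0.05. Over all tested genes 28.2% were higher and 31.0% lower, 59.2% in all. The median log2 fold change was -0.11 over the 10 genes and -0.02 over all tested genes. By library size 6 of the 10 were higher and 3 lower, against 68.4% and 6.71% of all tested genes, or 75.1% in either direction. Without KO_391 and WT_441, 4 were higher and 3 lower. With TMM factors Fth1 was the gene with every KO mouse above every WT mouse. Under the same scaling Tfr2 was the gene with every KO mouse below every WT mouse. These were 2 of 10 genes, against 7.10% and 6.47% of all tested genes and 13.6% in either direction.

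**Figure D1:**
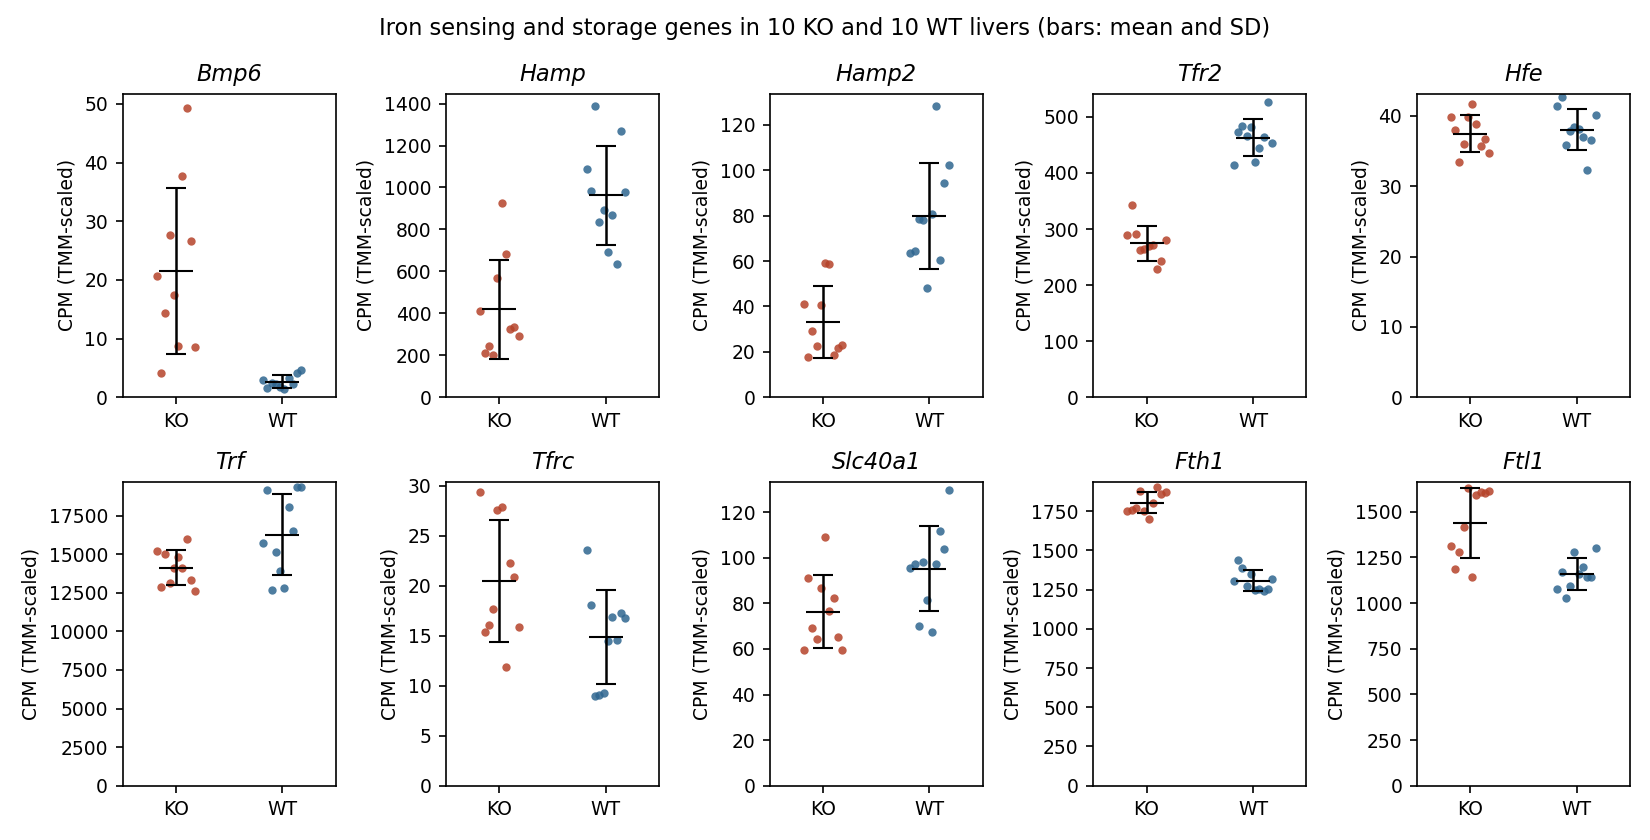
CPM (TMM-scaled, linear axes from 0) of the 10 genes in each of 10 KO and 10 WT livers, with black bars for mean and SD. KO mice spread from 4.17 to 49.4 CPM for Bmp6, against 1.35 to 4.65 CPM in WT mice, and Fth1 and Tfr2 do not overlap between the genotypes.

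Bmp6 (Entrez gene 12161; mm10 chromosome 13, 38345716 to 38499728, plus strand, 7 exon blocks), the ligand that raises hepcidin when liver iron is high, changed most. It had 4.17 CPM in the lowest KO mouse, a median of 19.1 and 49.4 in the highest, against 1.35, 2.32 and 4.65 CPM in WT mice. 9 of the 10 KO mice stood above every WT mouse, and the other, KO_391, stood below 2 WT mice. Bmp6 was 8.03-fold higher in KO mice (log2 fold change 3.01, SE 0.39, edgeR adjusted p = 2.2e-06). Its counts were low, 105 to 1058 fragments in KO mice and 22 to 98 in WT mice. With log2(RPKM + 1), which shrinks low values, the log2 fold change was 2.03. The sinusoidal endothelial markers were higher for 3 of 10 and lower for 0 with TMM factors, near the 28.2% of all tested genes, and higher for 10 of 10 by library size, against 68.4%, with a summed level of 303.8 to 374.3 CPM in KO mice and 206.9 to 398.4 CPM in WT mice. Stellate cell markers were higher for 8 of 10, and for 9 of 10 by library size, against the same 28.2% and 68.4%. Their sums were 305.6 to 573.5 CPM in KO mice and 167.0 to 329.9 CPM in WT mice. The part of these cells in the Bmp6 difference was not tested.

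Hamp (Entrez gene 84506; mm10 chromosome 7, 30942368 to 30944017, minus strand, 3 exon blocks), which encodes hepcidin, was lower in KO mice. It had 199.8 CPM in the lowest KO mouse, a median of 332.0 and 924.7 in the highest, against 635.6, 934.8 and 1388 CPM in WT mice. In KO mice 8 of 10 values lay below the lowest WT value, and the other two, KO_416 and KO_425, lay inside the WT range. The level fell to 0.436 of that in WT (log2 fold change -1.20, SE 0.25, edgeR adjusted p = 0.00041), and by library size the log2 fold change was -0.71 (adjusted p = 0.019). KO mice also differed more among themselves, with a coefficient of variation of 56.3% against 24.5% in WT mice; this difference in spread was not tested.

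Hamp2 (Entrez gene 66438; mm10 chromosome 7, 30922372 to 30924181, minus strand, 3 exon blocks), the duplicate of Hamp in mice, whose peptide is not known to control iron, had 17.8 CPM in the lowest KO mouse, a median of 26.2 and 59.0 in the highest, against 48.1, 78.4 and 128.3 CPM in WT mice. Again 8 of 10 KO mice lay below the lowest WT mouse. Its log2 fold change was -1.27 (SE 0.24, edgeR adjusted p = 0.00015), and -0.81 by library size. The Hamp to Hamp2 ratio within a mouse ran between 8.23 and 17.6 in KO mice and between 6.76 and 18.5 in WT mice, with a difference in mean log2 ratio of 0.01 (SE 0.19, 2-sided permutation p = 0.958, adjusted p = 0.994 over 4 ratios). The genes are near copies. The deposited statistics set aside 0 fragments for having several positions, and assigned, featureless and ambiguous fragments summed to the mapped fragments in all 20 mice, so such fragments are in the counts and the split between Hamp and Hamp2 is uncertain. The part of the higher share of such fragments in WT mice was not tested. Hamp also fell relative to transferrin, a different secreted hepatocyte product: the mean log2 Hamp to Trf ratio was -5.25 in KO mice and -4.10 in WT mice, a difference of -1.15 (SE 0.26, 2-sided permutation p = 0.00066, adjusted p = 0.00264) that does not depend on library scaling. Trf itself had a log2 fold change of -0.20 with TMM factors. The 10 hepatocyte markers ran from -0.50 (Serpinc1) to -1.22 (Ttr), with a median of -0.74. The ratio of Hamp to these markers was not tested.

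Tfr2 (Entrez gene 50765; mm10 chromosome 5, 137569851 to 137587481, plus strand, 20 exon blocks), the hepatocyte sensor of transferrin iron, had 228.1 CPM in the lowest KO mouse, a median of 271.0 and 342.9 in the highest, against 414.5, 464.2 and 526.8 CPM in WT mice. With TMM factors no KO mouse reached the lowest WT mouse, but by library size the genotypes overlapped. The log2 fold change was -0.75 (SE 0.07, edgeR adjusted p = 3.6e-09), and -0.29 by library size. The 10 hepatocyte markers had a median of -0.74 with TMM factors and -0.27 by library size. Whether Tfr2 fell beyond these markers was not tested. Hfe (Entrez gene 15216; mm10 chromosome 13, 23703841 to 23710811, minus strand, 6 exon blocks), its partner in iron sensing, had 33.4 to 41.7 CPM in KO mice, with a median of 37.4, and 32.3 to 42.7 CPM in WT mice, with a median of 38.0. The ranges overlapped almost whole. Its log2 fold change was -0.02 (95% interval -0.12 to 0.08, adjusted p = 0.75) with TMM factors and 0.45 by library size (adjusted p = 3.2e-06), close to the median of all genes under each scaling.

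Of the transport genes, Trf did not pass and Tfrc rose by a narrow margin. Trf (Entrez gene 22041; mm10 chromosome 9, 103208876 to 103230286, minus strand, 17 exon blocks), the plasma carrier of iron, had 12630 to 15990 CPM in KO mice, with a median of 14110, and 12710 to 19350 CPM in WT mice, with a median of 16100; 5 WT mice lay above the highest KO mouse. Its log2 fold change was -0.20 (SE 0.09, edgeR adjusted p = 0.066) with TMM factors and 0.26 by library size (adjusted p = 0.042). Leaving out WT_406, WT_408 or WT_409 brought the adjusted p with TMM factors under 0.05, to 0.028 at the lowest. Tfrc (Entrez gene 22042; mm10 chromosome 16, 32608896 to 32632794, plus strand, 19 exon blocks), the receptor that takes up iron-loaded transferrin, had 11.9 CPM in the lowest KO mouse, a median of 19.3 and 29.4 in the highest, against 8.99, 15.7 and 23.6 CPM in WT mice. The ranges overlapped, with 3 KO mice above every WT mouse and 3 WT mice below every KO mouse. Tfrc rose by a log2 fold change of 0.45 (SE 0.19, edgeR adjusted p = 0.045), and by 0.92 by library size. The call ended without the filter on low counts (adjusted p = 0.064) and when KO_372, KO_414, KO_416, KO_434, WT_406, WT_407, WT_408, WT_409 or WT_427 was left out, with adjusted p up to 0.080 over the 20 omissions.

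Slc40a1 (Entrez gene 53945; mm10 chromosome 1, 45908070 to 45925594, minus strand, 8 exon blocks), which encodes ferroportin, had 59.5 CPM in the lowest KO mouse, a median of 72.8 and 109.0 in the highest, against 67.4, 97.4 and 129.8 CPM in WT mice. The ranges overlapped, with 4 KO mice below every WT mouse. It fell with TMM factors (log2 fold change -0.32, SE 0.12, edgeR adjusted p = 0.028) but had a log2 fold change of 0.14 by library size (adjusted p = 0.39). Leaving out KO_372, KO_404, KO_435, KO_453 or WT_441 ended the call, with adjusted p up to 0.070, as did leaving out KO_391 and WT_441 together (adjusted p = 0.057). In the authors' deposited table its false discovery rate was 0.0727. Kupffer cells, the liver macrophages, also express ferroportin. Of their 10 markers 7 were higher and 0 lower in KO mice, against 28.2% and 31.0% of all tested genes. By library size 8 were higher, against 68.4% of all tested genes. The markers had sums of 271.6 to 531.0 CPM in KO mice and 143.5 to 305.7 CPM in WT mice. Across the 10 KO mice Slc40a1 had a Pearson r of 0.43 with this sum (permutation p = 0.214, adjusted p = 0.642) and a Spearman rho of 0.58 (permutation p = 0.0894, adjusted p = 0.523), and r was 0.69 without KO_402 and KO_434. Across the 10 WT mice r was 0.09 (permutation p = 0.802) and rho -0.20 (permutation p = 0.582).

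The ferritin genes rose. Fth1 (Entrez gene 14319; mm10 chromosome 19, 9982703 to 9985092, plus strand, 4 exon blocks), the heavy chain that oxidises iron for storage, had 1700 CPM in the lowest KO mouse, a median of 1786 and 1903 in the highest, against 1240, 1289 and 1439 CPM in WT mice. Every KO mouse stood above every WT mouse. The log2 fold change was 0.47 (SE 0.05, edgeR adjusted p = 2.4e-07), and 0.94 by library size. Ftl1 (Entrez gene 14325; mm10 chromosome 7, 45457944 to 45459886, minus strand, 4 exon blocks), the light chain, had 1145 to 1631 CPM in KO mice, with a median of 1503, against 1029 to 1302 CPM in WT mice, with a median of 1151; 7 KO mice lay above every WT mouse. Its log2 fold change was 0.31 (SE 0.08, edgeR adjusted p = 0.0018), 0.78 by library size, and its false discovery rate in the authors' deposited table was 0.0657. A pseudogene of Ftl1 is in the table and 431 exon bases of Ftl1 overlap an opposite-strand entry with no symbol, so its reads may be shared. Recruited macrophage markers, of cells that also hold ferritin, were higher for 8 of 8 under both scalings. Of all tested genes 28.2% were higher with TMM factors and 68.4% by library size. The marker sums were 96.2 to 306.7 CPM in KO mice and 38.9 to 65.1 CPM in WT mice, and the part of these cells in the ferritin values was not tested.

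Ratios within a mouse set uptake against storage. The mean log2 Tfrc to Fth1 ratio was -6.52 in KO mice and -6.52 in WT mice, a difference of 0.002 (SE 0.21, 2-sided permutation p = 0.994). The mean log2 Fth1 to Ftl1 ratio was 0.34 in KO mice and 0.17 in WT mice, a difference of 0.16 (SE 0.07, 2-sided permutation p = 0.0272, adjusted p = 0.0544). The ferritin ratio passed, with an adjusted p of 0.017 to 0.049, when KO_414, KO_425, KO_435, KO_453, WT_389, WT_390 or WT_406 was left out.

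**Figure D2:**
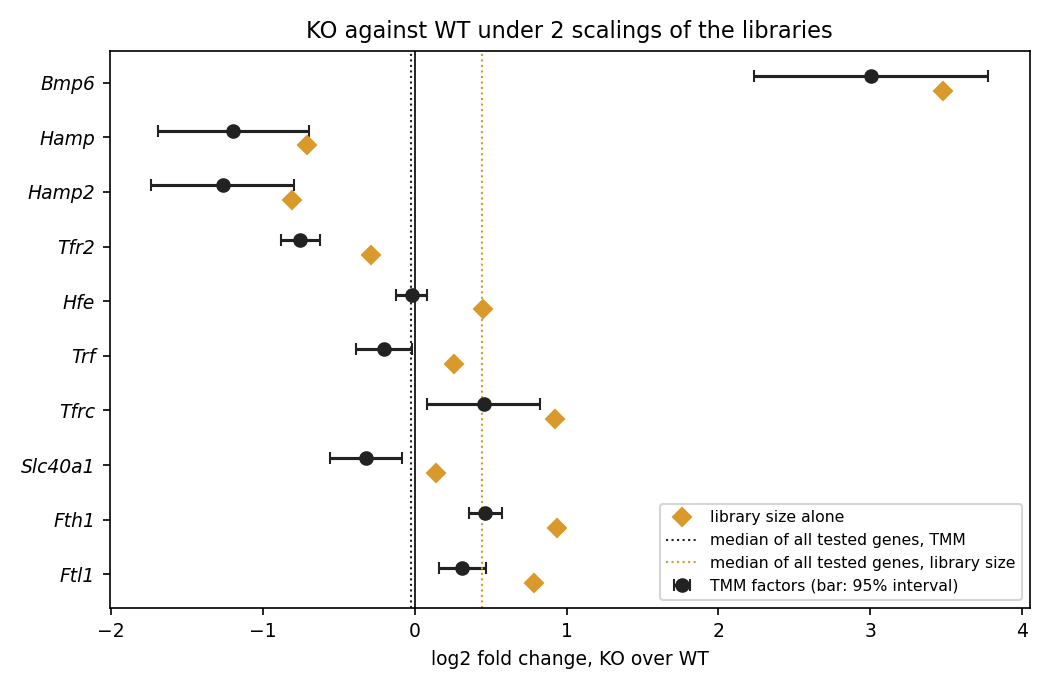
Log2 fold change, KO over WT, of the 10 genes under TMM factors (circles, with bars for the 95% interval) and by library size alone (diamonds); dotted lines are medians over every tested gene, -0.02 and 0.44. Bmp6 is at 3.01 and 3.48. Trf, Slc40a1 and Hfe (-0.02 against 0.45) lie below 0 under TMM factors and above 0 by library size.

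Levels per length, in the deposited RPKM values, place the 10 genes on 1 scale. In KO mice the order of mean RPKM was Trf, Fth1, Ftl1, Hamp, Tfr2, Hamp2, Slc40a1, Hfe, Bmp6 and Tfrc, and in WT mice it was Trf, Hamp, Fth1, Ftl1, Hamp2, Tfr2, Slc40a1, Hfe, Tfrc and Bmp6. Trf had 6059 ± 473.5 RPKM in KO mice and 6964 ± 1140 RPKM in WT mice (SD, n = 10 each). Hamp had 1062 ± 594.3 RPKM in KO mice, below Ftl1 in 8 of 10 mice, and 2431 ± 588.7 RPKM in WT mice, above Fth1 in all 10 mice. Neighbours whose ranges overlapped were Ftl1 and Hamp, Tfr2 and Hamp2, Slc40a1 and Hfe, Hfe and Bmp6, and Bmp6 and Tfrc in KO mice, and Hamp and Fth1, Hamp2 and Tfr2, Slc40a1 and Hfe, and Tfrc and Bmp6 in WT mice. Bmp6 stood lowest in WT mice at 1.10 ± 0.46 RPKM and had 8.94 ± 5.88 RPKM in KO mice.

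Hamp was set against its upstream ligand and against Id1, a gene that BMP signals induce. Id1 had 2.62 CPM in the lowest KO mouse, a median of 10.9 and 34.9 in the highest, against 3.45, 12.8 and 29.4 CPM in WT mice. Its log2 fold change was 0.02 (95% interval -0.86 to 0.90, edgeR adjusted p = 0.98), and that of Smad7, a feedback inhibitor of the pathway, was -0.05 (adjusted p = 0.84). Across the 10 KO mice Hamp and Id1 in log2 CPM had a Pearson r of 0.85 (permutation p = 0.00181, adjusted p = 0.0217 over 12 relations) and a Spearman rho of 0.79 (permutation p = 0.00809, adjusted p = 0.0971). Without KO_416 and KO_391, the mice farthest from the Id1 median, r was 0.72. Across the 10 WT mice r was 0.18 (permutation p = 0.617, adjusted p = 0.802) and rho 0.0061 (permutation p = 1.00), and the difference between the genotypes was not tested. Hamp and Bmp6 had an r of 0.13 (permutation p = 0.714, adjusted p = 0.802) and a rho of 0.15 (permutation p = 0.682) in KO mice. In WT mice they had an r of 0.47 (permutation p = 0.171, adjusted p = 0.642) and a rho of 0.42 (permutation p = 0.234). Without the 2 mice farthest from the Bmp6 median these r values were -0.12 in KO mice and 0.35 in WT mice. Of the 12 relations, Hamp with Id1 in KO mice was the 1 with an adjusted p of r under 0.05.

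**Figure D3:**
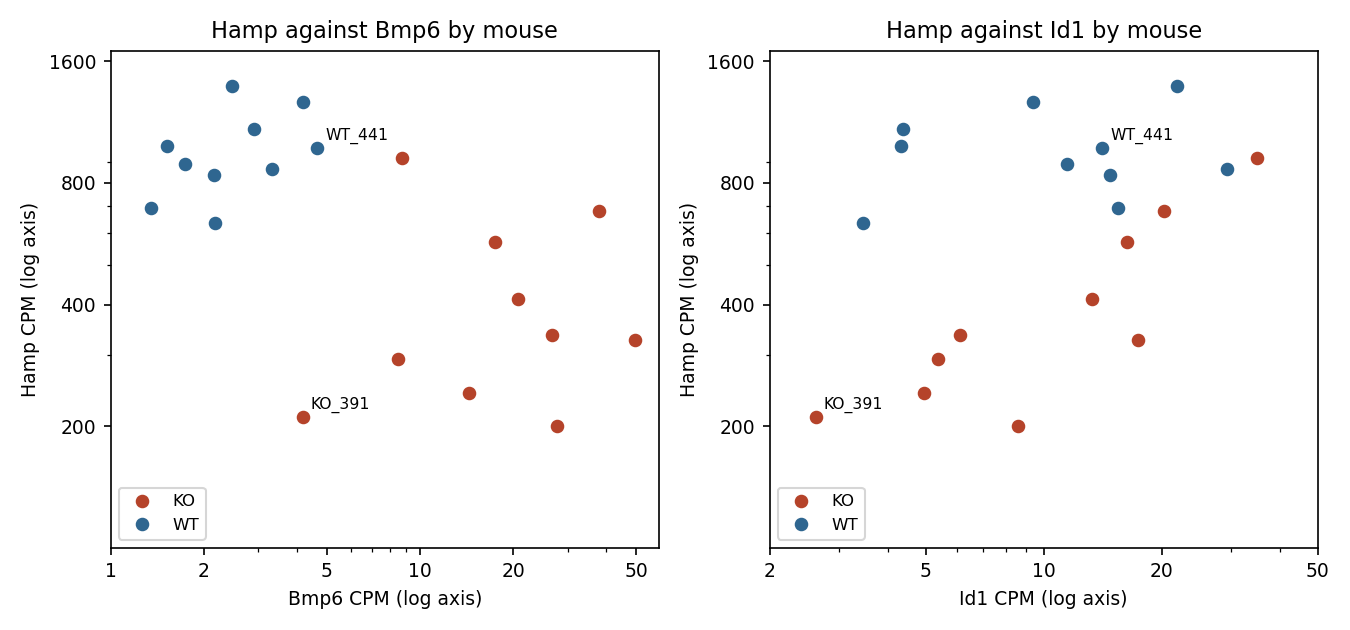
Hamp CPM against Bmp6 CPM (left) and Id1 CPM (right), 1 point per mouse, all axes logarithmic, with KO_391 and WT_441 labelled. KO mice lie at lower Hamp and higher Bmp6 than most WT mice, while on the Id1 axis the genotypes overlap and the KO points rise together (r = 0.85).

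After subtraction of each genotype mean, the genes most like Hamp over the 20 mice in log2 CPM, among 10944 genes, were Tm2d3 (r = 0.84), Bcl10 (0.81), Sat1 (0.78), Rps20 (0.77) and Tmem176b (0.76). Zkscan7 (-0.82), Pdxdc1 (-0.80) and Tmem143 (-0.80) were least like it. Bcl10 had an r of 0.90 in KO mice and 0.19 in WT mice, whereas Tm2d3 had 0.87 in KO mice and 0.78 in WT mice. Of the other 9 iron genes, Hamp2 had the highest r, 0.70 (0.87 in KO mice and 0.17 in WT mice), followed by Hfe at 0.55. These are descriptions, and values of 1 mouse share a library and its scaling.

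A further 106 genes of iron biology in 7 lists were examined, of which 97 were tested. With TMM factors 24 were higher and 33 lower in KO mice, with a median log2 fold change of -0.07; by library size 69 were higher and 7 lower, with a median of 0.39. Here and in each list the counts with TMM factors are read against the 28.2% higher and 31.0% lower of all tested genes. Counts by library size are read against 68.4% higher and 6.71% lower of all tested genes, whose median was then 0.44. Fold changes of named genes have an adjusted p under 0.05 in edgeR's test unless stated.

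The BMP and SMAD arm upstream of hepcidin had 6 of 23 tested genes higher and 4 lower, with a median of -0.03, and 16 higher and 0 lower by library size. Fkbp1a, which holds BMP type I receptors inactive, had 99.3 ± 15.03 CPM in KO mice and 52.9 ± 3.25 CPM in WT mice (SD, n = 10 each), a log2 fold change of 0.91. Neo1, the hemojuvelin-binding receptor neogenin, changed by 0.50 and Smad4, the shared SMAD partner, by 0.29. The others named were lower with TMM factors but above 0 by library size: Furin, a protease that cuts prohepcidin and hemojuvelin, had a log2 fold change of -0.45 against 0.02, the activin receptor Acvr2a -0.38 against 0.09, Tmprss6, the protease that limits hepcidin, -0.25 against 0.21, and Smad5 -0.15 against 0.32. Exons of Acvr2a overlap those of Orc4.

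The IL6 and STAT3 arm had 4 of 9 tested genes higher and 4 lower, against 6 higher and 2 lower by library size, and Il6 itself was under the filter on low counts. Il6ra, the receptor subunit that binds IL6, had 19.4 ± 10.8 CPM in KO mice and 50.6 ± 23.6 CPM in WT mice (SD, n = 10 each), a log2 fold change of -1.39. Stat3, the transcription factor of the arm, had 79.7 ± 12.9 CPM in KO mice and 134.7 ± 23.0 CPM in WT mice (SD, n = 10 each). Its log2 fold change was -0.76, and -0.29 by library size. With TMM factors every KO mouse lay below every WT mouse by a narrow margin. The highest KO mouse had 95.6 CPM and the lowest WT mouse 96.6 CPM. By library size the genotypes overlapped. Socs3, a STAT3 target named after its values were seen, had a log2 fold change of -1.08 (adjusted p = 0.017; by library size -0.60, adjusted p = 0.14). It had 2.98 to 10.2 CPM in KO mice, with a median of 7.92, and 4.01 to 54.0 CPM in WT mice, with a median of 12.4. The highest WT value was that of WT_429, and the next, WT_408, had 16.6 CPM. Only 1 KO mouse lay below every WT mouse. Il22ra1, an IL22 receptor subunit, rose by 1.07, the kinase gene Jak2 by 0.50, Il6st, the signalling subunit gp130, by 0.33 and the kinase gene Jak1 by 0.12, while Tyk2, a further kinase gene, did not pass (0.10, adjusted p = 0.22). The Jak1 call ended without the filter on low counts (adjusted p = 0.067) and when KO_402, WT_389, WT_406, WT_407, WT_408, WT_409 or WT_441 was left out (adjusted p up to 0.077), and exons of Jak1 overlap those of Raver2.

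The iron regulatory protein and IRE genes had 3 of 10 higher and 2 lower, against 9 higher and 1 lower by library size. Alas2, which carries the 5′ element shown above, had 10.1 CPM in the lowest KO mouse, a median of 30.4 and 54.5 in the highest, against 128.8, 148.7 and 186.2 CPM in WT mice. No KO mouse reached the WT range, and the log2 fold change was -2.31 (SE 0.18). Erythroid markers, of cells that also express Alas2, were higher for 0 and lower for 0 of 3 tested, against 28.2% and 31.0% of all tested genes. Their log2 fold changes were -0.76 (Hba-a1), -0.72 (Hba-a2) and -0.77 (Hbb-bs), with adjusted p of 0.17 to 0.20 in edgeR's test. The erythroid marker sums were 45.7 to 198.3 CPM in KO mice and 39.4 to 433.7 CPM in WT mice. The part of these cells in the Alas2 difference was not tested. Fbxl5, the iron sensor that removes iron regulatory proteins, rose by 0.41, Cdc42bpa, a kinase whose mRNA has an IRE in humans, by 0.41 and Hif1a, a hypoxia factor, by 0.38. Ireb2, which encodes iron regulatory protein 2, had a log2 fold change of -0.24 with TMM factors and 0.22 by library size. With TMM factors that call ended when KO_372, KO_404, KO_414, KO_416, KO_425, KO_434, KO_435 or WT_429 was left out (adjusted p up to 0.082). Exons of Cdc42bpa overlap those of Coq8a.

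Iron uptake and reduction genes had 4 of 12 higher and 7 lower, against 7 and 3 by library size. Slc39a14, the hepatocyte importer of iron not bound to transferrin, had 99.7 CPM in the lowest KO mouse, a median of 129.5 and 212.2 in the highest, against 173.2, 270.7 and 352.3 CPM in WT mice, and 8 KO mice lay below every WT mouse. Its log2 fold change was -0.88 (SE 0.13). Slc46a1, a heme and folate carrier, fell by 0.67 on the log2 scale, and Steap3, the ferrireductase of transferrin endosomes, by 0.61 (by library size -0.15, adjusted p = 0.26). Scara5, a ferritin receptor named after its values were seen, had a log2 fold change of -2.30. Lcn2, which binds bacterial iron carriers, rose by 1.42, Slc11a1, a phagosomal metal transporter of macrophages, by 0.81, Picalm, an adaptor of transferrin receptor endocytosis, by 0.71 and Steap2, a metalloreductase, by 0.62.

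Genes of iron export, chaperones and ferritin turnover had 3 of 11 higher and 3 lower, against 9 and 0 by library size. Pcbp3, of the iron chaperone family, rose by 1.03 at low levels of 1.24 ± 0.34 CPM in KO mice and 0.60 ± 0.18 CPM in WT mice (SD, n = 10 each). The mitochondrial iron importers Slc25a37 and Slc25a28 rose by 0.43 and 0.19. Ncoa4, which delivers ferritin to lysosomes, had a log2 fold change of -0.44 with TMM factors and 0.03 by library size, and Mon1a, which takes part in ferroportin trafficking, -0.27 and 0.21.

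Hemoglobin and heme scavenging genes had 2 of 9 higher and 3 lower, against 3 and 0 by library size. Slc48a1, the lysosomal heme exporter, had 157.1 ± 27.9 CPM in KO mice and 41.8 ± 2.74 CPM in WT mice (SD, n = 10 each), a log2 fold change of 1.91, and 29 of its exon bases overlap Hdac7. Blvrb, which reduces biliverdin, had 173.6 ± 53.1 CPM in KO mice and 75.3 ± 16.5 CPM in WT mice (SD, n = 10 each), a log2 fold change of 1.21. Hp, the hemoglobin-binding haptoglobin, had a log2 fold change of -0.49 (by library size -0.00078, adjusted p = 0.996) and Lrp1, the receptor for heme-bound hemopexin, -0.35 against 0.11 by library size.

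Iron-sulfur cluster genes had 2 of 23 higher and 10 lower, against 19 and 1 by library size, with a median log2 fold change of -0.14 with TMM factors and 0.33 by library size. Fdx1, a mitochondrial ferredoxin, had a log2 fold change of -0.76, and -0.29 by library size. The cytosolic assembly genes Ciao3 and Ciao1 had -0.50 and -0.37 with TMM factors, against -0.03 and 0.10 by library size, and Nfu1, a mitochondrial cluster carrier, -0.31 against 0.16. Ciapin1 and Nubp1, both of cytosolic assembly, rose by 0.25 and 0.17, but the Ciapin1 call ended without WT_429 (adjusted p = 0.0501) and the Nubp1 call without WT_389 (adjusted p = 0.058). Exons of Ciao3 overlap those of Haghl and exons of Nubp1 those of Tvp23a, and Picalm and Ciapin1 overlap entries with no symbol.

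**Figure D4:**
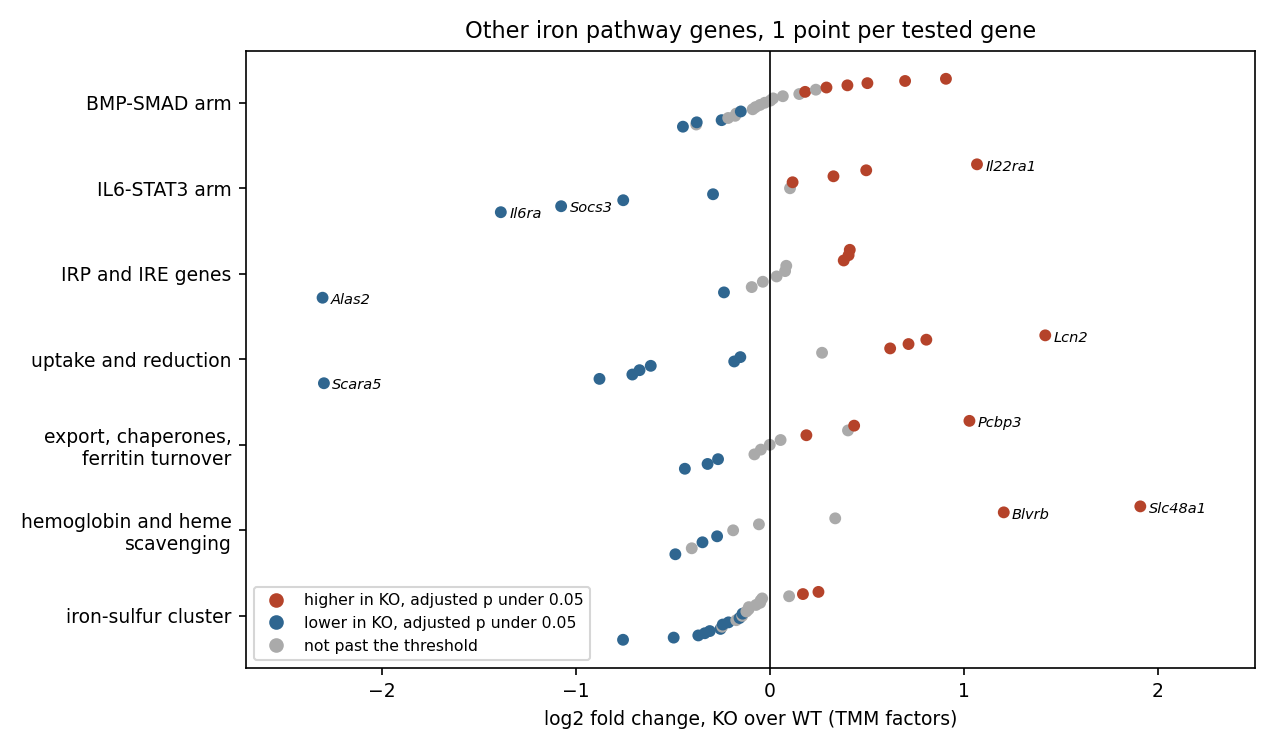
Log2 fold change, KO over WT with TMM factors, of each tested gene of the 7 lists, coloured by direction where the adjusted p was under 0.05, with names where the change passed 1 in size. Alas2 lies at -2.31 and Slc48a1 at 1.91. By library size the counts shift upwards, to 69 higher and 7 lower of 97, near the 68.4% and 6.71% of all tested genes.

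In the authors' deposited gene ontology table, iron ion binding (116 genes) had a false discovery rate of 0.000751. The terms closest to the 10 genes had higher rates in that table: iron ion transport (33 genes) 0.306, cellular iron ion homeostasis (46 genes) 0.732 and iron ion homeostasis (64 genes) 0.880.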

How the data were processed

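Liver RNA of 10 KO and 10 WT mice was analysed, with genotype taken from the sample labels. Each library is a separate mouse; no batch, litter or date is labelled. Raw fragment counts by Entrez gene were deposited, with a normalized signal that equals CPM over the TMM effective library size, and RPKM values, which are that signal per kilobase. The deposited file names give Rsubread, RefSeq mm10 and ROTS, but HISAT2 2.0.5 and DESeq2 appear in the submitters' processing notes. The sources used here give no strand setting. Per the file headers, the authors' ROTS table gives a p-value, an FDR and, of KO over WT, a log2 fold change, and their gene ontology tables an FDR p-value per term and a count of annotated genes. Of the fragment statistics, 20 columns were not used here.

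edgeR 4.0.16 in R 4.3.3 was run on the counts, with filterByExpr (minimum count 10, minimum total count 15), TMM factors, robust quasi-likelihood fits and Benjamini-Hochberg adjustment over 13670 genes at 0.05. The fit was tested on simulated data. CPM values are TMM-scaled; log2 CPM has a prior count of 2. The 95% intervals are normal intervals from the SE. Ratios (prior of 0.5 on counts) and relations within a genotype used 2-sided permutation tests with 100000 resamples. Alternatives were other scalings and filters, DESeq2 1.42.0, limma 3.58.1 and omitted mice; leaving out KO_391 and WT_441 together was chosen after seeing the data. The 10 genes, the lists and the tests were chosen with earlier results of these data known. Named pathway genes were, per list, up to 4 with the smallest adjusted p and any of 5 or fewer called in the minority direction. Genes most like Hamp were the 5 highest and 3 lowest by r, among genes at or above 1 in mean log2 CPM, without predicted genes and pseudogenes. Gene positions follow mm10.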

Additional observations from a re-analysis of the deposited data

How the results depend on the processing

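Bmp6, Hamp, Hamp2, Tfr2, Fth1 and Ftl1 kept their direction and an adjusted p under 0.05 under all 10 other settings and all 20 omissions of 1 mouse. Scaling by library size alone moved the calls over all tested genes to 9355 higher and 917 lower, and those of the pathway genes to 69 higher and 7 lower. It also turned the sign of Trf (0.26), Slc40a1 (0.14), Hfe (0.45), Smad7 (0.42), Acvr2a (0.088), Smad5 (0.32), Tmprss6 (0.21), Furin (0.017), Ireb2 (0.22), Ncoa4 (0.034), Mon1a (0.21), Lrp1 (0.11), Ciao1 (0.10) and Nfu1 (0.16). The Tfrc and Fth1 correlation was -0.34 in KO mice and -0.16 in WT mice, and 0.29 and 0.38 by library size, without passing in either. DESeq2 called Trf lower (adjusted p = 0.047). With omitted mice, the Tfrc to Fth1 difference ranged from -0.081 to 0.083 (-0.0097 with a prior of 5), Hamp to Hamp2 from -0.084 to 0.078, Fth1 to Ftl1 from 0.14 to 0.19, Hfe from -0.048 to 0.014, Id1 from -0.26 to 0.24 and Smad7 from -0.11 to 0.050. Without KO_391 and WT_441, Hfe was at 0.011 and Smad7 at 0.060. Id1 was at -0.052 with log2(RPKM + 0.1) and -0.044 with log2(RPKM + 1). The call of Ireb2 ended without KO_372, KO_404, KO_414, KO_416, KO_425, KO_434, KO_435 or WT_429 (log2 fold change -0.21 to -0.17), that of Jak1 without KO_402, WT_389, WT_406, WT_407, WT_408, WT_409 or WT_441 (0.10 to 0.12) or the filter (0.12), that of Nubp1 without WT_389 (0.15) or with quality weights (0.14), and that of Ciapin1 without WT_429 (0.22). The causes were not tested. No paired analysis was possible because KO and WT mice share no replicate number or named litter. Low counts limit Bmp6 in WT mice.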
